A study of Homo sapiens with 18 samples.

Results

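The genes described here encode the enzymes that build sterols and fatty acids, with 1 sterol carrier, in U251 cells exposed to the kinase inhibitor enzastaurin. The list names 37 genes, 20 in a sterol branch and 17 in a fatty acid branch. A gene was read from probe sets that the platform annotation maps to it alone, and the probe set with the highest mean log2 intensity over the 18 arrays was taken. By that rule 32 of the 37 had a probe set, 18 of the sterol branch and 14 of the fatty acid branch, among 19775 genes in all. Of these 32, 30 passed the filter on low levels (17 sterol and 13 fatty acid genes), among 12376 genes tested. FDFT1 and ACSL3 were not analysed here. CYP51A1, ELOVL1 and FADS1 had only probe sets shared with another gene and were left out, and TM7SF2 and ME1 lay below the level filter.

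U251 cells are a long-established line from a human glioblastoma, and enzastaurin inhibits kinases, protein kinase C beta above all. The 6 groups were U251 cells exposed to enzastaurin for 4, 10 or 18 h and U251 cells exposed to its solvent DMSO for 4, 10 or 18 h, with 3 Affymetrix HG-U133 Plus 2.0 arrays in each. All cells grew in RPMI medium with 5% serum, and the dose of enzastaurin is not given in the labels. The series title sets the arrays in a study of GSK3 inhibition and glioma cell death. Each array measured 54613 probe sets as 1 intensity apiece, the medians of the arrays ran between 99.2 and 125.9, and correlations within groups lay between 0.951 and 0.969 over all probe sets. The array weights that limma estimated were lowest for enzastaurin replicate 3 at 10 h (0.526) and enzastaurin replicate 3 at 18 h (0.562), against 0.884 to 1.64 on the other arrays. Of 6 glioma and glial markers VIM, NES, CD44 and SOX2 passed the level filter, while GFAP and S100B did not, with median intensities of 16.95 and 11.05. Of 9 markers of other cell types with a probe set 6 lay below the filter, and CD3E, PECAM1 and MBP lay above it, with medians of 113, 305 and 150.4. Whether the 3 arrays of a group came from separate cultures is not stated, and the p-values therefore cover the spread among these arrays alone, which may be technical.

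Cells make cholesterol from acetyl-CoA through mevalonate, isoprenoid units, squalene and lanosterol, and they make palmitate from acetyl-CoA through malonyl-CoA, which desaturases and elongases then modify. Transcription of most of these genes is driven by the SREBP factors, membrane-bound proteins that are released from the endoplasmic reticulum when its cholesterol is low and held there by INSIG proteins when it is high. SREBP2 acts mainly on the sterol genes and SREBP1 mainly on the fatty acid genes, and both work on promoters together with NF-Y, a factor that binds the letters CCAAT, and with Sp1. Glioma cells are known for a high demand for both products.

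Promoter windows of 300 bases (250 before and 50 after the start of the gene), taken from RefSeq on GRCh38.p14, were matched for 33 of the 37 genes. The first 4 below belong to genes whose mRNA was higher under enzastaurin by 18 h, and that of PMVK to a gene of the same pathway that was not called at any time. Capitals mark CCAAT on either strand (ATTGG where it lies on the opposite strand).
MSMO1, chr4:165327419-165327718, plus strand: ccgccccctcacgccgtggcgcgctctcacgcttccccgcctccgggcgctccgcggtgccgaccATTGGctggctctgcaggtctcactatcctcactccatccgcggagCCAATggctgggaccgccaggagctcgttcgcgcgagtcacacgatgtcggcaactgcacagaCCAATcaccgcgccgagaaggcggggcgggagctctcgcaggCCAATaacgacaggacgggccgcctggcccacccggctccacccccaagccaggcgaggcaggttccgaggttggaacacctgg
STARD4, chr5:111512486-111512785, minus strand: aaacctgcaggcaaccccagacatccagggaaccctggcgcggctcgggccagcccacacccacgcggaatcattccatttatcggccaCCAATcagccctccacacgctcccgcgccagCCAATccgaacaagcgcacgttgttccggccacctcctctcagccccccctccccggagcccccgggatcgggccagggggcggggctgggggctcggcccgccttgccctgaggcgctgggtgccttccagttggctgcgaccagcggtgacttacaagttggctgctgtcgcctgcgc
HMGCS1, chr5:43313363-43313662, minus strand: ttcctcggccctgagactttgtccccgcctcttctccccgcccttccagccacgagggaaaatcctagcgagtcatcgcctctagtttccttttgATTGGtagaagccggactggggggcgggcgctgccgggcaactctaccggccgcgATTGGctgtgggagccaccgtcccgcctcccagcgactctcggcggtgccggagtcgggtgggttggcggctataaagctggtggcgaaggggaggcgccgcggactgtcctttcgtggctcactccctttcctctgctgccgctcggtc
SCD, chr10:100346983-100347282, plus strand: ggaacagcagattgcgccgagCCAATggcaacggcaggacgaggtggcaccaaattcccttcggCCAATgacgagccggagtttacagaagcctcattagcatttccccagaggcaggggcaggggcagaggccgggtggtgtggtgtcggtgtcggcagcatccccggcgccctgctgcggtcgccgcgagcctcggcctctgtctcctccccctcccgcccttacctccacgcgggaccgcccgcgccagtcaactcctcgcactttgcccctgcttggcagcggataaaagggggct
PMVK, chr1:154936670-154936969, minus strand: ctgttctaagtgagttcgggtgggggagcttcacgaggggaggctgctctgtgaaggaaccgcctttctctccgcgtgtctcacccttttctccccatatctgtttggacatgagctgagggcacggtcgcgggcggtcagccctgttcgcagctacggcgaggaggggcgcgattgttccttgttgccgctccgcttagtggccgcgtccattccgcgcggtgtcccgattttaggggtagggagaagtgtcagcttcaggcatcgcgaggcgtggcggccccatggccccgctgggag

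MSMO1 held CCAAT 4 times in this window, STARD4, HMGCS1 and SCD 2 times each, and PMVK 0 times. These windows were picked as examples: the other HMGCS1 window held CCAAT 0 times, and that of MVD, also not called at any time, 3 times. The letters were present in at least 1 window of 15 of 17 sterol genes (88.2%) and of 11 of 16 fatty acid genes (68.8%), against 39.7% of the 27305 genes in the table. Windows with CCAAT 2 or more times made up 50% of the 24 sterol windows and 24% of the 25 fatty acid windows, against 10.75% of all 35116 windows. Among tested genes, 16 of the 17 with a window that were higher at 18 h held CCAAT, and 7 of the 10 that were not higher did. GGGCGG, the letters of the Sp1 box, was in at least 1 window of 16 of 17 sterol genes and 15 of 16 fatty acid genes, against 48.3% of all genes. By window its shares were 87.5% and 76%, against 44.95% of all windows. The shares of all genes cover every gene with a window, tested or not, and a gene with more windows has more places for a motif. The sterol response letters TCACNCCAC were in 0 of the 24 sterol windows and in 1 of the 25 fatty acid windows, that of ACSL1, against 1.13% of all windows. The related CACCCCAC was also in 0 sterol windows and 1 fatty acid window, against 2.79% of all windows, and the E-box CACGTG was in 3 sterol windows and 1 fatty acid window, against 7.26%. Motifs were searched on both strands as exact letters, with N for any base. Sites that differ from these letters or lie outside the windows were not counted, so a count of 0 does not show that a promoter lacks such a site. CACCCCAC and TCACNCCAC can overlap, CCAAT can overlap its own reverse, CACGTG reads the same on both strands, and some genes have several overlapping windows.

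Most sterol genes were called higher under enzastaurin by 10 h and 14 of 17 by 18 h, and fewer genes of the fatty acid branch were. Among the 14, the EBP call was lost when any of 4 arrays was left out. Changes are log2 differences of mean log2(intensity + 16), enzastaurin minus DMSO, from 3 arrays in each group. Calls were made at an adjusted p under 0.05, adjusted over all 12376 genes. At 4 h, 1 of 17 sterol genes (MSMO1) and 1 of 13 fatty acid genes (SCD) were higher, against 0.558% of all genes higher and 1.25% lower, and 0 members of either branch were lower by limma (also 0 at an unadjusted p under 0.05). At 10 h, 12 of 17 sterol genes and 2 of 13 fatty acid genes were higher and 0 of either branch lower, also at an unadjusted p under 0.05, against 3.77% of all genes higher and 4.69% lower. At 18 h, 14 of 17 sterol genes were higher and 0 lower (0 also unadjusted), and 6 of 13 fatty acid genes were higher and 1 lower, against 8.1% of all genes higher and 7.9% lower. In a bulk RNA sample, a lower intensity from fewer cells of a kind and one from less RNA per cell cannot be told apart.

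The median change of the sterol branch was 0.14 at 4 h, 0.44 at 10 h and 0.77 at 18 h. That of the fatty acid branch was 0.07, 0.16 and 0.21 at the same times, and that of all genes was 0.00, -0.02 and 0.00. All 17 sterol genes had a positive change at 10 h and at 18 h, as did 10 of 13 fatty acid genes at each of these times. At 18 h the changes of the sterol genes ran from 0.08 to 1.59, and those of the fatty acid genes from -0.57 to 1.70. All 3 enzastaurin arrays lay above all 3 DMSO arrays for 5, 13 and 15 of 17 sterol genes at 4, 10 and 18 h, against 9.17%, 11.8% and 15.4% of all genes. The same held for 2, 5 and 6 of 13 fatty acid genes. All 3 enzastaurin arrays lay below all 3 DMSO arrays for 0 sterol genes at each time and for 2, 0 and 1 fatty acid genes. Among all 12376 genes, 1130, 1855 and 1780 lay below in this way. The 4 h medians depend on the scaling: with the median of each array subtracted, the median of all genes at 4 h was 0.12, that of the sterol branch 0.25 and that of the fatty acid branch 0.18. The fatty acid median at 10 h was 0.10 without enzastaurin replicate 2 and 0.26 without enzastaurin replicate 3, and its 18 h median was 0.34 without enzastaurin replicate 3. That of the sterol branch at 4 h was 0.07 without DMSO replicate 3 or without enzastaurin replicate 3, and that of the fatty acid branch was 0.12 without DMSO replicate 1.

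**Figure D1:**
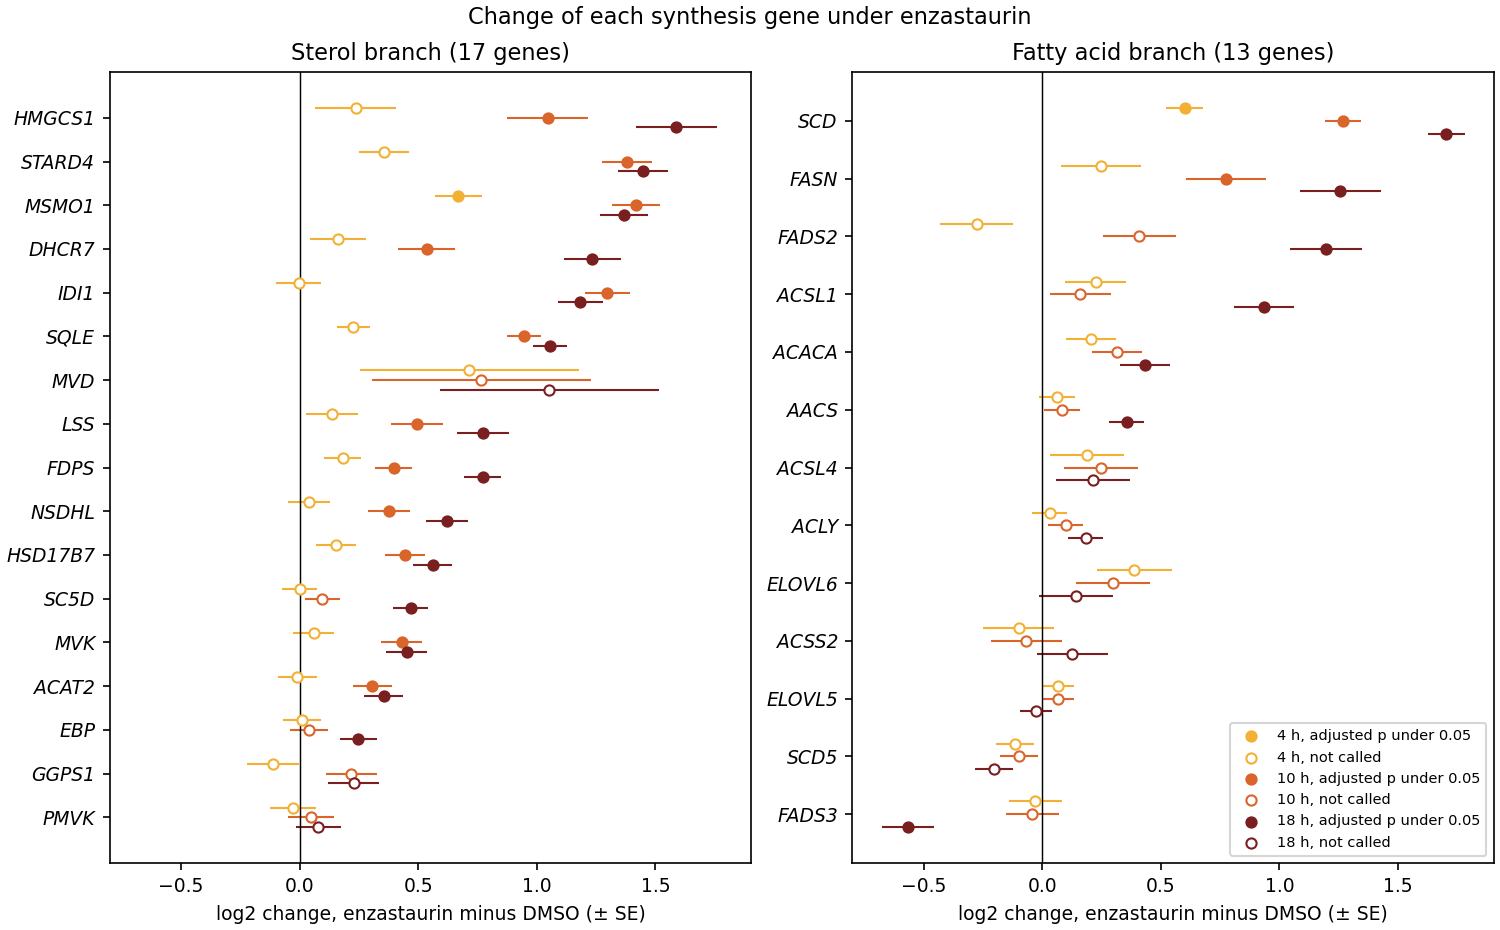
Log2 change (enzastaurin minus DMSO, horizontal axis) of each of the 17 sterol and 13 fatty acid genes at 4, 10 and 18 h, with bars of 1 SE; filled points passed an adjusted p under 0.05. All sterol genes lie to the right of 0 at 10 and 18 h, while the fatty acid genes spread from -0.57 for FADS3 to 1.70 for SCD at 18 h.

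**Figure D2:**
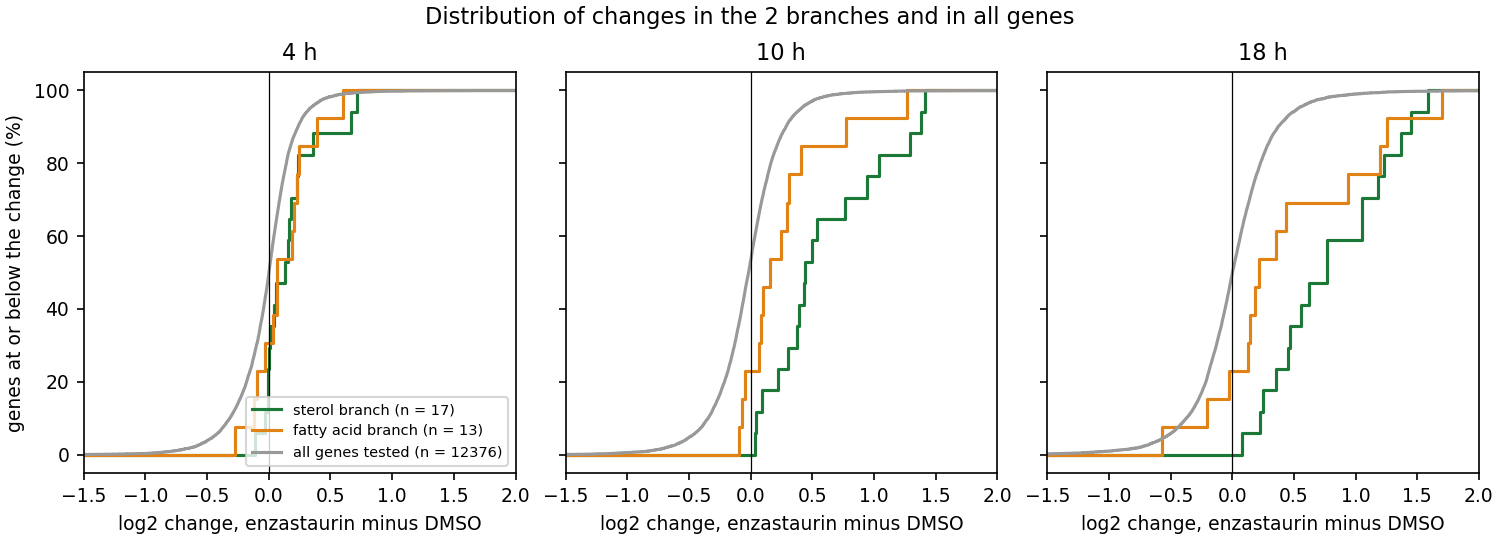
Percentage of genes at or below each log2 change (enzastaurin minus DMSO) for the 17 sterol genes, the 13 fatty acid genes and all 12376 genes tested, in a panel for each time. The sterol curve moves right of that of all genes with time, to medians of 0.77 in the sterol branch, 0.21 in the fatty acid branch and 0.00 in all genes at 18 h.

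Of the 8 genes from acetyl-CoA to the isoprenoid diphosphates 5 were higher at 10 h and at 18 h, with the largest change at 18 h in HMGCS1 and at 10 h in IDI1. HMGCS1 makes HMG-CoA from acetoacetyl-CoA and acetyl-CoA. Its intensity at 4 h was 674, 535 and 853 in enzastaurin arrays, against 652, 709 and 402 in DMSO arrays. At 10 h HMGCS1 was 1508, 1472 and 1348 in enzastaurin arrays, against 677, 626 and 775 in DMSO arrays. At 18 h HMGCS1 was 2146, 2385 and 1856 in enzastaurin arrays, against 676, 668 and 739 in DMSO arrays. The groups overlapped at 4 h and stood apart at 10 and 18 h, and the DMSO means stayed between 587 and 694. HMGCS1 had the highest change of the sterol branch at 18 h (log2 change 1.59, SE 0.17, adjusted p = 1.11e-06), after 1.05 (adjusted p = 0.000401) at 10 h. Its effect at 18 h exceeded that at 4 h by 1.35 (adjusted p = 0.00114).

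ACAT2, the cytosolic thiolase that joins acetyl-CoA units, rose less. Its intensity at 18 h was 3979, 4279.8 and 3980.3 in enzastaurin arrays, against 3736, 2949.6 and 2933 in DMSO arrays. Every enzastaurin array was above every DMSO array, though DMSO replicate 1 came close (log2 change 0.35, SE 0.08, adjusted p = 0.00415). At 10 h it was 3159, 3208 and 3634 in enzastaurin arrays, against 2844, 2627 and 2595 in DMSO arrays (0.31, adjusted p = 0.0211). That 10 h call was lost when DMSO replicate 2, DMSO replicate 3 or enzastaurin replicate 3 was left out, with an adjusted p of up to 0.107.

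Of the genes that turn mevalonate into isopentenyl diphosphate, MVK rose and PMVK and MVD did not pass. MVK phosphorylates mevalonate, and its intensity at 10 h was 1526, 1465 and 1742 in enzastaurin arrays, against 1141, 1294 and 1064 in DMSO arrays (0.43, adjusted p = 0.0029). At 18 h it was 1788, 1768 and 2059 in enzastaurin arrays, against 1319, 1367 and 1396 in DMSO arrays (0.45, adjusted p = 0.000855). The groups did not overlap at either time. PMVK, the next kinase, averaged 829.6 ± 56.8 under enzastaurin and 783 ± 34.3 under DMSO at 18 h (SD, n = 3 each), with changes of -0.03, 0.05 and 0.08 at the 3 times. MVD, which makes isopentenyl diphosphate, was dim and uneven, at 322, 303 and 104 in enzastaurin arrays, against 67, 130.3 and 103 in DMSO arrays at 18 h. Its changes of 0.72, 0.77 and 1.05 had an SE of 0.46 and passed at no time (adjusted p = 0.138 at 18 h). A change of this size in MVD was not detectable with this spread.

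IDI1, which isomerises isopentenyl diphosphate, was called at 10 and 18 h but not at 4 h. At 4 h it was 1737, 2012 and 2274 in enzastaurin arrays, against 2328, 1816 and 1892 in DMSO arrays, with overlap (-0.00, adjusted p = 0.996). At 10 h IDI1 was 3661, 3591 and 3839.5 in enzastaurin arrays, against 1512, 1514 and 1459 in DMSO arrays. At 18 h IDI1 was 5133, 5806 and 5789 in enzastaurin arrays, against 2539.8, 2287 and 2508 in DMSO arrays. The groups were apart at both of these times. The change was 1.30 at 10 h (SE 0.09, adjusted p = 1.15e-08) and 1.18 at 18 h (adjusted p = 1.65e-08). The effect at 18 h was 1.19 above that at 4 h (adjusted p = 8.15e-06), a call lost under averaging over the probe sets of IDI1 (adjusted p = 0.154).

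FDPS joins the isoprenoid units into farnesyl diphosphate, the branch point of sterols and other isoprenoids. At 10 h it measured 4692, 4538 and 4868 in enzastaurin arrays, against 3676, 3808 and 3234 in DMSO arrays. At 18 h it measured 6373, 6052 and 7107 in enzastaurin arrays, against 3938, 4041 and 3446 in DMSO arrays. Enzastaurin arrays were higher at both times, by 0.40 (adjusted p = 0.00233) at 10 h and 0.77 (adjusted p = 5.01e-07) at 18 h, and the effect at 18 h exceeded that at 4 h by 0.59 (adjusted p = 0.00173). With array medians subtracted that difference no longer passed (adjusted p = 0.0562). GGPS1, which takes farnesyl diphosphate away from sterols towards geranylgeranyl diphosphate, was 1137, 1132 and 1234 in enzastaurin arrays, against 1004, 987 and 992 in DMSO arrays at 18 h. Its arrays did not overlap there, but the change of 0.23 did not pass (SE 0.11, adjusted p = 0.176).

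Both tested genes of squalene epoxidation and ring closure rose at 10 and 18 h. At 4 h SQLE, squalene epoxidase, was 2609.7, 2904 and 3085 in enzastaurin arrays, against 2399, 2427 and 2497 in DMSO arrays. At 10 h SQLE was 4503, 4628 and 4391 in enzastaurin arrays, against 2144, 2397 and 2457 in DMSO arrays. At 18 h SQLE was 6683, 6622 and 7304 in enzastaurin arrays, against 3129, 3274 and 3496 in DMSO arrays. Enzastaurin arrays were above DMSO arrays at all 3 times, although the 4 h change of 0.23 did not pass (adjusted p = 0.132). The later changes were 0.95 (adjusted p = 2.05e-08) and 1.05 (adjusted p = 1.78e-09). LSS closes the rings to give lanosterol, and at 18 h it was 2477, 2542 and 2685 in enzastaurin arrays, against 1489.7, 1399.5 and 1608 in DMSO arrays (log2 change 0.77, SE 0.11, adjusted p = 3.73e-05). At 10 h it was 1811, 1747 and 1681 in enzastaurin arrays, against 1552, 1026 and 1180.4 in DMSO arrays, with no overlap (0.49, adjusted p = 0.00656). Without DMSO replicate 2 the 10 h call of LSS was lost (adjusted p = 0.054).

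All 6 tested enzymes of the late sterol steps were called higher at 18 h, though the EBP call did not hold under several settings, as given below. MSMO1 (sterol-C4-methyl oxidase) removes methyl groups from the sterol ring and was the only sterol gene called at all 3 times. At 4 h its intensity was 1149, 1342 and 1394 in enzastaurin arrays, against 849, 783 and 785 in DMSO arrays. At 10 h MSMO1 was 2590.3, 2586 and 2266 in enzastaurin arrays, against 811, 946 and 1004 in DMSO arrays. At 18 h MSMO1 was 3911, 4312 and 3537 in enzastaurin arrays, against 1672, 1369.8 and 1482 in DMSO arrays. No enzastaurin array overlapped a DMSO array at any time. The changes were 0.67 (adjusted p = 0.000644), 1.42 (adjusted p = 9.85e-09) and 1.37 (adjusted p = 5.86e-09), and the enzastaurin effect at 18 h was 0.70 above that at 4 h (adjusted p = 0.00362). That difference did not pass with array medians subtracted (adjusted p = 0.0739). MSMO1 also rose in DMSO cells between 4 and 18 h, by 0.89 (adjusted p = 2.52e-06).

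The demethylation partners of MSMO1 moved by smaller amounts. NSDHL is a dehydrogenase that acts after it. At 10 h NSDHL was 948, 861 and 962 in enzastaurin arrays, against 673, 694 and 756 in DMSO arrays. At 18 h it was 1101, 1172 and 1104 in enzastaurin arrays, against 730.3, 711 and 735 in DMSO arrays. HSD17B7 is the ketoreductase of the same cycle. It was, at 10 h, 1413, 1691 and 1507 in enzastaurin arrays, against 1082, 1139 and 1150.2 in DMSO arrays. At 18 h HSD17B7 was 1629.7, 1933 and 1856 in enzastaurin arrays, against 1173, 1294 and 1185 in DMSO arrays. Neither gene overlapped between groups at these times. NSDHL changed by 0.38 (adjusted p = 0.00895) and 0.62 (adjusted p = 3.14e-05), and HSD17B7 by 0.44 (adjusted p = 0.00179) and 0.56 (adjusted p = 6.67e-05). With array medians subtracted, the 10 h change of NSDHL no longer passed (adjusted p = 0.0548).

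DHCR7 makes cholesterol from 7-dehydrocholesterol, the final step of the Kandutsch-Russell route. At 10 h DHCR7 was 908, 868 and 933 in enzastaurin arrays, against 705, 542 and 616 in DMSO arrays. At 18 h DHCR7 was 1660.5, 1551 and 1820.5 in enzastaurin arrays, against 622, 784 and 711 in DMSO arrays. All enzastaurin arrays were above all DMSO arrays at both times, by 0.54 (adjusted p = 0.00661) and 1.23 (adjusted p = 2.76e-07). DHCR7 was the only sterol gene for which the difference between the effects at 18 h and 10 h passed the test (0.70, adjusted p = 0.0311), against 1.33% of all genes higher and 0.905% lower in that comparison. That call was lost when any of 8 arrays was left out, with array medians subtracted and with no trend (adjusted p up to 0.185).

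SC5D and EBP, the desaturase and the isomerase that precede DHCR7, were called at 18 h only. At 10 h SC5D was 1644, 1848 and 1797 in enzastaurin arrays, against 1569, 1693 and 1683 in DMSO arrays, and the groups overlapped (0.09, adjusted p = 0.529). At 18 h it was 2211, 2125 and 2317 in enzastaurin arrays, against 1614, 1607 and 1568 in DMSO arrays, with no overlap (0.47, adjusted p = 0.000112). At 18 h EBP was 3069, 3171 and 3217 in enzastaurin arrays, against 2329.9, 2893 and 2763 in DMSO arrays, and its enzastaurin arrays lay just above the highest DMSO array. The EBP change of 0.25 had an adjusted p of 0.0383. It was 0.16 without DMSO replicate 1, and the call was lost without that array or without any of the 3 enzastaurin arrays (adjusted p up to 0.234), and also under 6 other settings (up to 0.769). TM7SF2, a sterol reductase below the level filter, averaged 121 ± 33.6 under enzastaurin and 167 ± 56.4 under DMSO at 18 h (SD, n = 3 each).

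STARD4 carries cholesterol between membranes and is no enzyme. At 4 h STARD4 was 472, 470.4 and 469 in enzastaurin arrays, against 320.3, 428 and 352 in DMSO arrays. At 10 h STARD4 was 1017, 988 and 903 in enzastaurin arrays, against 384, 347 and 356 in DMSO arrays. At 18 h STARD4 was 1569.7, 1657 and 1576 in enzastaurin arrays, against 623, 557 and 552 in DMSO arrays. The groups were apart at all 3 times, and the DMSO arrays at 18 h were also higher than those at 4 h, by 0.64 (adjusted p = 0.000191). Its change was 1.38 (adjusted p = 2.39e-08) at 10 h and 1.45 (adjusted p = 5.26e-09) at 18 h, while that of 0.36 at 4 h did not pass (adjusted p = 0.105).

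**Figure D3:**
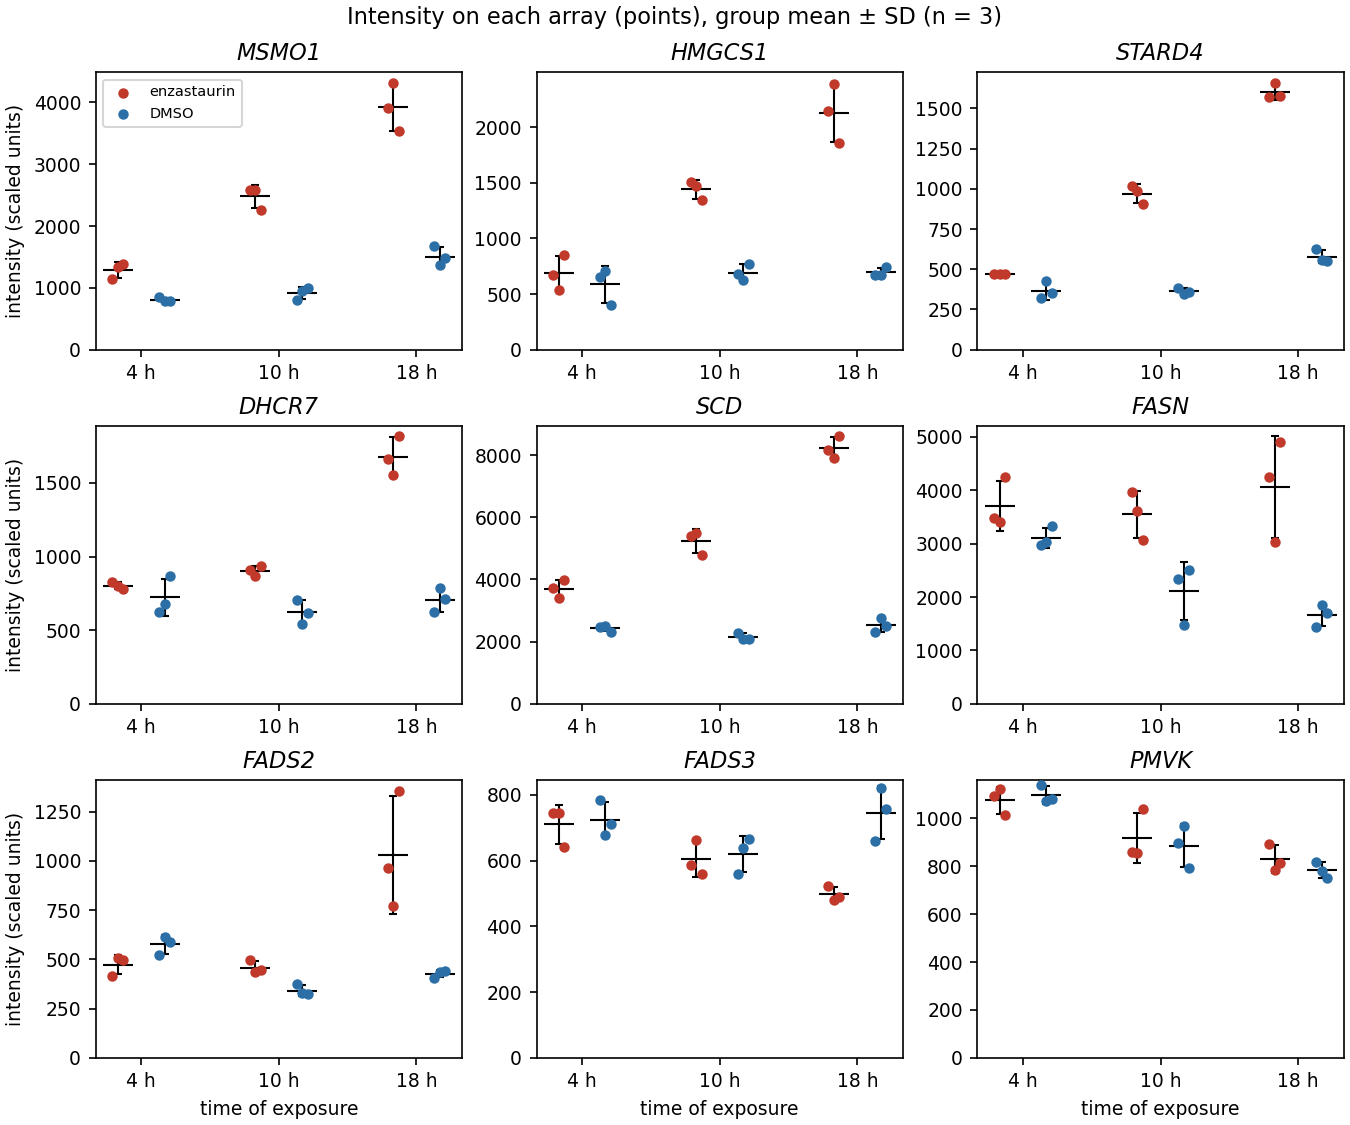
Intensity (scaled units, vertical axis from 0) on each of the 3 arrays of a group at 4, 10 and 18 h for 9 genes, enzastaurin in red to the left of DMSO in blue, with the group mean and SD in black. MSMO1, HMGCS1, STARD4 and SCD climb with time in enzastaurin arrays, a course that was not tested, and MSMO1 and STARD4 are also higher at 18 h than at 4 h in DMSO arrays. FASN stays between 3028 and 4908 in enzastaurin arrays while its DMSO arrays go down, and PMVK overlaps between the treatments at every time.

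Of the 3 tested genes that supply acetyl-CoA or related units, 1 (AACS) was higher at 18 h. ACLY, which splits citrate into acetyl-CoA in the cytosol, averaged 10558 ± 841 under enzastaurin and 9286 ± 526 under DMSO at 18 h (SD, n = 3 each; 0.18, adjusted p = 0.0998). ACSS2, which activates acetate, was 488, 519 and 468 in enzastaurin arrays, against 533, 348 and 485 in DMSO arrays, with overlap (0.13, adjusted p = 0.66). AACS, which activates acetoacetate for lipid synthesis, was called at 18 h, at 2074, 1802 and 1993 in enzastaurin arrays, against 1489, 1479.7 and 1604 in DMSO arrays, with no overlap (log2 change 0.36, SE 0.08, adjusted p = 0.00217). ME1, which supplies NADPH, lay below the level filter, averaging 84.5 ± 39.7 under enzastaurin and 86.3 ± 41.1 under DMSO at 18 h (SD, n = 3 each).

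Both enzymes of fatty acid chain synthesis were higher at 18 h. ACACA, acetyl-CoA carboxylase 1, makes malonyl-CoA. At 18 h ACACA was 1798, 1614 and 1852 in enzastaurin arrays, against 1303, 1204 and 1379 in DMSO arrays, with no overlap (0.43, adjusted p = 0.00702), and at 10 h its arrays were also apart but the change of 0.32 did not pass (adjusted p = 0.0738). At 4 h FASN, which builds palmitate, was 3474, 3398 and 4251 in enzastaurin arrays, against 2974, 3022 and 3327 in DMSO arrays. At 10 h FASN was 3960.1, 3606 and 3074 in enzastaurin arrays, against 2331, 1485 and 2506 in DMSO arrays. At 18 h FASN was 4257, 3028 and 4908 in enzastaurin arrays, against 1447, 1848 and 1702 in DMSO arrays. FASN was separated at all 3 times, with changes of 0.25 (adjusted p = 0.593), 0.77 (adjusted p = 0.00598) and 1.26 (adjusted p = 2.15e-05).

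In DMSO cells FASN fell with time. Its DMSO mean was 3108 at 4 h, 2107 at 10 h and 1666 at 18 h, a fall by 0.90 on the log2 scale between 4 and 18 h (adjusted p = 0.000718). Averaged with its second probe set, which lay below the level filter (mean intensity 33.1), the fall of FASN did not pass (adjusted p = 0.124). Its enzastaurin mean was 3707, 3547 and 4064 at the same times, and its arrays at 18 h were spread from 3028 to 4908. The difference over time within enzastaurin arrays was not tested. SCD, as a counterpart, had DMSO means of 2431, 2158 and 2521 at the 3 times (0.05 between 4 and 18 h, adjusted p = 0.726). In DMSO cells between 4 and 18 h, 5 of 17 sterol genes were higher (IDI1, SQLE, MSMO1, SC5D and STARD4, by 0.29 to 0.89) and PMVK was lower (-0.48, adjusted p = 0.00118). In the fatty acid branch ACSL1 was higher (0.47) and FASN lower, against 11.3% of all genes higher and 9% lower in that comparison. The IDI1 arrays overlapped between 4 and 18 h, and its call was lost without any of 4 arrays (adjusted p up to 0.169) and under 5 other settings. That of ACSL1 was lost without DMSO 4 h replicate 3 (adjusted p = 0.0523), with array medians subtracted and under averaging (up to 0.158). The SC5D call in DMSO cells turned to -0.09 under averaging over each gene's probe sets.

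The desaturases went in different directions. SCD, stearoyl-CoA desaturase 1, puts the first double bond into saturated chains and was called at all 3 times by its brightest probe set. Its other probe sets changed by 0.15 to 0.39 at 4 h and did not pass then (adjusted p = 0.571 to 0.81). At 4 h SCD was 3726, 3396 and 3973 in enzastaurin arrays, against 2473, 2507 and 2314 in DMSO arrays. At 10 h SCD was 5396, 5503 and 4782 in enzastaurin arrays, against 2287, 2093 and 2095 in DMSO arrays. At 18 h SCD was 8177, 7915 and 8600.3 in enzastaurin arrays, against 2308, 2755 and 2501 in DMSO arrays. No array overlapped, and SCD had the highest change of all 30 genes at 18 h (log2 change 1.70, SE 0.08, adjusted p = 3.96e-12), after 0.60 (adjusted p = 0.000132) at 4 h and 1.27 (adjusted p = 1.25e-09) at 10 h. Its effect at 18 h exceeded that at 10 h by 0.44 (adjusted p = 0.0385), a call lost when any of 9 arrays was left out. At 18 h SCD5, the other stearoyl-CoA desaturase of humans, was 1792, 1711 and 2130.1 in enzastaurin arrays, against 2243, 2139 and 2084 in DMSO arrays, with overlap (-0.20, SE 0.08, adjusted p = 0.0969).

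FADS2, the delta-6 desaturase of polyunsaturated chains, had its enzastaurin arrays below its DMSO arrays at 4 h and above them at 10 and 18 h. At 4 h FADS2 was 417, 505 and 498 in enzastaurin arrays, against 523, 615 and 589.5 in DMSO arrays. At 10 h FADS2 was 496, 434 and 446 in enzastaurin arrays, against 374, 328 and 323 in DMSO arrays. At 18 h FADS2 was 963, 769 and 1357 in enzastaurin arrays, against 408, 435 and 442 in DMSO arrays. All 3 enzastaurin arrays were lower at 4 h (-0.28, adjusted p = 0.48, not passing), and all were higher at 18 h (1.197, adjusted p = 1.03e-05). The effects at 18 h and 4 h differed by 1.47 (adjusted p = 0.000166), the widest such difference of the 30 genes. This difference includes the course of the DMSO arrays, whose mean was 576 at 4 h, 341 at 10 h and 428 at 18 h. The enzastaurin mean was 473, 459 and 1030 at the same times, so between 4 and 10 h the DMSO mean moved more than the enzastaurin mean. At 18 h FADS3, which desaturates sphingoid bases, was 521, 481 and 488 in enzastaurin arrays, against 660.2, 820.2 and 757 in DMSO arrays. Each enzastaurin array was below each DMSO array, so FADS3 fell by 0.57 on the log2 scale (SE 0.11, adjusted p = 0.001). Among the brightest probe sets of the 30 genes this was the only fall called at any of the 3 times. The second probe set of SCD5 was also lower at 18 h (-1.33, adjusted p = 0.0072).

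The brightest probe sets of the elongases did not pass at any time, while the second of ELOVL6 was higher at 10 h (0.43, adjusted p = 0.00605). ELOVL5, which lengthens polyunsaturated chains, averaged 13809.8 ± 784 under enzastaurin and 14054 ± 560.2 under DMSO at 18 h (SD, n = 3 each). ELOVL6, which lengthens palmitate, averaged 3188 ± 359.6 under enzastaurin and 2910.5 ± 584 under DMSO (SD, n = 3 each). Their changes at 18 h were -0.03 (SE 0.07) and 0.14 (SE 0.16). Acyl-CoA synthetases activate free fatty acids. At 10 h ACSL1 was 899.9, 903 and 675 in enzastaurin arrays, against 732, 766 and 695 in DMSO arrays, with overlap. At 18 h ACSL1 was 1437, 1411 and 1059 in enzastaurin arrays, against 703, 660.1 and 639.9 in DMSO arrays, with no overlap (0.94, adjusted p = 2.24e-05). The effect of ACSL1 at 18 h exceeded that at 10 h by 0.77 (adjusted p = 0.0241), a call lost when any of 7 arrays was left out. ACSL4, which prefers arachidonate, averaged 1209.8 ± 282 under enzastaurin and 1024 ± 53.6 under DMSO at 18 h (SD, n = 3 each; 0.21, adjusted p = 0.415).

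Across time, 11 sterol genes were called at both 10 and 18 h but not at 4 h, EBP and SC5D at 18 h only, MSMO1 at all 3, and PMVK, MVD and GGPS1 at none. In the fatty acid branch the same classes held FASN, then ACACA, AACS, FADS2 and ACSL1 with the lower FADS3, then SCD, and 6 genes at none. How many of all genes fell in each class was not counted. At 4, 10 and 18 h, 0.558%, 3.77% and 8.1% of all genes were higher. A call at one time and not at another does not show a difference between times, which was tested separately. By that test the effect at 18 h exceeded that at 4 h for 11 of 17 sterol genes and 4 of 13 fatty acid genes, and 1 fatty acid gene (FADS3) was lower, against 4.07% of all genes higher and 3.71% lower. With array medians subtracted, 6 of the 11 sterol calls (FDPS, LSS, MSMO1, NSDHL, HSD17B7 and SC5D), 2 of the 4 higher fatty acid calls (FASN and ACSL1) and that of FADS3 were lost, and the calls over all genes were 143 higher and 403 lower, against 504 and 459. Those of HMGCS1, IDI1, SQLE, DHCR7, STARD4, SCD and FADS2 passed under that setting too. The effect at 18 h passed as larger than that at 10 h for DHCR7, SCD and ACSL1, and all 3 calls were lost with array medians subtracted. The estimated change was larger at each later time for 15 of 17 sterol and 7 of 13 fatty acid genes, and for 2687 of all 12376 genes. IDI1 and MSMO1 were the 2 sterol genes whose change was not larger at 18 h than at 10 h (-0.11 and -0.05, adjusted p = 0.795 and 0.932).

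Many of these genes have further probe sets, which read other stretches of the same mRNAs. Beside the brightest, 17 probe sets of 10 sterol genes and 15 of 8 fatty acid genes passed the level filter, with p-values adjusted over every probe set past it. At 4 h, 0 of the 17 and 0 of the 15 were higher or lower. By their brightest probe sets, 0.558% of all 12376 genes were higher and 1.25% lower then. Beside shares this low, a count of 0 says little about these probe sets. At 10 h, 7 of the 17 and 4 of the 15 were higher and 0 lower, against 2.94% of all 22781 probe sets past the filter higher and 3.3% lower. At 18 h, 8 of the 17 were higher and 0 lower, and 5 of the 15 were higher and 2 lower, against 6.2% of all these probe sets higher and 6.47% lower. Their sign was that of the brightest probe set for 13 of 17 and 12 of 15, and the sign agreement in other genes was not counted. The other probe sets of SCD changed by 1.22 to 1.54, the second of HMGCS1 by 1.17 and the second of DHCR7 by 1.48, and 2 of MVK by 0.89 and 1.01. These 7 passed, as did the second probe set of IDI1 (1.19), while its 2 dim ones had changes of -0.21 and -0.26 that did not. The second of DHCR7 ranks second by mean log2 intensity only. Its mean intensity was 921, against 906 for the probe set used, and its change at 10 h was 0.83, against 0.54. At 18 h the 3 others of EBP had changes of -0.08 to 0.12 that did not pass. The second probe set of FADS3 fell by 0.48 on the log2 scale (adjusted p = 0.0315) and the second of SCD5 by 1.33 (adjusted p = 0.0072), and the second of ACLY rose by 0.32 (adjusted p = 0.0102). Under averaging over each gene's probe sets, SCD at 4 h, IDI1 and LSS at 10 h, and EBP and SC5D at 18 h no longer passed (adjusted p = 0.284, 0.0595, 0.0689, 0.769 and 0.183).

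**Figure D4:**
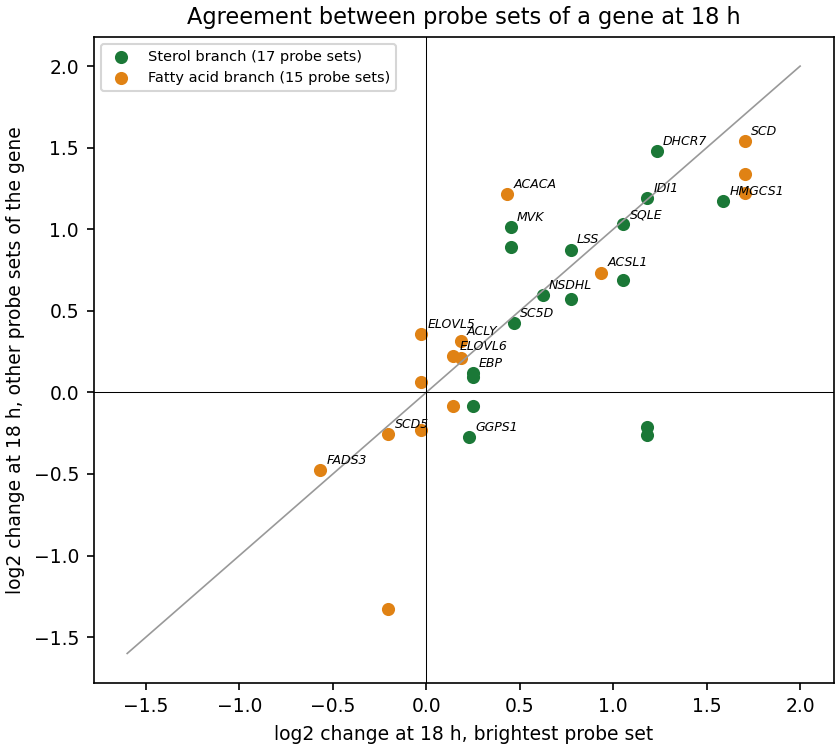
Log2 change at 18 h (enzastaurin minus DMSO) of each further probe set past the level filter (vertical axis) against that of the brightest probe set of its gene (horizontal axis), 17 sterol and 15 fatty acid probe sets; the grey line marks equal changes. The 5 points farthest from the line are 2 dim probe sets of IDI1 and 1 each of SCD5 (-1.33), ACACA (1.21 against 0.43) and MVK (1.01 against 0.45).

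Genes that regulate or use the products were read from 4 further lists. Of 7 regulators of SREBP, 3 were higher and 1 lower at 18 h, against 8.1% of all genes higher and 7.9% lower, with a list median of 0.09. INSIG1, which holds SREBP in the endoplasmic reticulum, was 7279.7, 7734 and 7192 in enzastaurin arrays, against 2140.0, 2145 and 2014 in DMSO arrays, with no overlap (1.81, adjusted p = 1.65e-12). INSIG2, its relative, was 598, 636 and 637 in enzastaurin arrays, against 424, 371 and 402 in DMSO arrays (0.63, adjusted p = 0.0018), and SREBF2, which encodes SREBP2, was 730.3, 767 and 852 in enzastaurin arrays, against 548, 434 and 471 in DMSO arrays (0.68, adjusted p = 0.00278). Both sets of arrays were apart, and MBTPS1, the protease that makes the first cut in SREBP, was lower (-0.59, adjusted p = 0.00552). SREBF1, which encodes SREBP1, was not called (0.09, SE 0.22, adjusted p = 0.843).

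Of 6 measured genes of sterol export and LXR targets, 2 were higher and 0 lower at 18 h by limma (at an unadjusted p under 0.05, 1 was lower), against the same 8.1% and 7.9% of all genes. These were NPC1 and NPC2, which pass cholesterol out of lysosomes, with 1230.0, 1132 and 1318 in enzastaurin arrays, against 609, 718 and 827 in DMSO arrays for NPC1 (0.77, adjusted p = 6.19e-05) and a change of 0.35 (adjusted p = 0.000558) for NPC2. MYLIP, a ubiquitin ligase under LXR control, was lower at 4 h (-1.13, adjusted p = 0.000702) and at 10 h (-0.87, adjusted p = 0.00236). At 18 h MYLIP was 396, 345 and 296 in enzastaurin arrays, against 471, 426 and 546 in DMSO arrays, apart but not passing (-0.46, adjusted p = 0.0752). ABCA1, the cholesterol exporter, changed by -0.40 with overlap (adjusted p = 0.308).

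Of 13 measured genes of fatty acid oxidation 0 were higher and 3 lower at 18 h by limma, with a median of -0.15 (at an unadjusted p under 0.05, 1 was higher and 4 lower), against 8.1% of all genes higher and 7.9% lower. ACADM, the medium-chain acyl-CoA dehydrogenase, was 2929, 3167 and 2994 in enzastaurin arrays, against 4106, 3848 and 4196 in DMSO arrays (-0.42, adjusted p = 0.000941). HADHB, a subunit of the trifunctional protein, changed by -0.26 (adjusted p = 0.00756) and CPT1A, which admits fatty acids to mitochondria, by -0.37 (adjusted p = 0.0464), and the CPT1A arrays overlapped between groups. In DMSO cells HADHB was higher at 18 h than at 4 h (0.26, adjusted p = 0.00628). Of 10 measured genes of glycerolipid synthesis and storage, 1 was higher and 1 lower at 18 h, close to the 8.1% and 7.9% of all genes. LPIN1, a phosphatidate phosphatase, was 1861, 1915 and 2077 in enzastaurin arrays, against 1449.5, 1544 and 1406 in DMSO arrays (0.41, adjusted p = 0.000213), and PLIN3, which coats lipid droplets, was 1437, 1471 and 1609.9 in enzastaurin arrays, against 1993, 2333 and 2399 in DMSO arrays (-0.57, adjusted p = 0.000471). Both were apart between groups.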

How the data were processed

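Total RNA of U251 cells was labelled as biotinylated cRNA and hybridised to Affymetrix HG-U133 Plus 2.0 arrays, per the labels. What the authors deposited is a linear signal intensity per array for 54613 probe sets, with GCOS 1.2 named in the submitters' processing notes. Intensities span 0.1 to 63584.9, and trimmed means (2%) of the 18 arrays are all within 498.2 to 498.5, so the arrays share 1 scale. Detection calls were not used. The number of arrays limits the precision, as does the signal over background for dim probe sets.

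Probe sets with 1 gene symbol (41091; 1801 had several and 11721 none) were kept, symbols being matched by gene identifier to RefSeq. The probe set with the highest mean log2 intensity stood for its gene, and those under the median level of all probe sets (an intensity of 102) were left out. The log2 values of intensity plus 16 were fitted in limma 3.58.1 (R 4.3.3) with 1 mean for each of the 6 groups, empirical Bayes moderation with a trend, and Benjamini-Hochberg adjustment over 12376 genes. The median SE of a log2 change was 0.134. The script was tested on simulated data. Alternatives changed 1 choice at a time: offset 1 or 64, no level filter or the brightest 25%, array medians subtracted, quantile normalization, every probe set on its own, the mean over probe sets, no trend, array weights, only the groups compared, replicate blocks, a 2-fold minimum, the branches without STARD4 and GGPS1 or without the acetyl-CoA suppliers, and each array left out. The mean over probe sets also took in those below the level filter.

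Every listed gene was described, with values on each array for called ones, and from each further list up to 4 genes with the smallest adjusted p at 18 h. SREBF1 and the MYLIP values before 18 h were added after their values were seen. The genes, lists, motifs and tests were chosen with earlier results of these data known, so counts and medians are given without a list test. Python 3.11.15 with matplotlib 3.10.9 drew the figures.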

Additional observations from a re-analysis of the deposited data

Results flagged for a closer look

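The enzastaurin effect differed between 18 h and 4 h for 16 of the 30 genes, against 4.07% of all genes higher and 3.71% lower. The difference between the 2 effects was tested, and these are given as log2 differences, effect at 18 h minus effect at 4 h. In the sterol branch HMGCS1 (1.35), IDI1 (1.19), STARD4 (1.09) and DHCR7 (1.07) differed most. They were followed by SQLE (0.83), MSMO1 (0.70), LSS (0.64), FDPS (0.59), NSDHL (0.58), SC5D (0.47) and HSD17B7 (0.41). In the fatty acid branch FADS2 (1.47), SCD (1.10), FASN (1.01) and ACSL1 (0.71) had a larger effect at 18 h, and FADS3 (-0.54) had a lower one. The largest adjusted p of the 16 was 0.0398, for HSD17B7. Those of HSD17B7 and FADS3 were lost without any of 9 and of 8 arrays, and that of ACSL1 without DMSO 4 h replicate 1 or enzastaurin 18 h replicate 1. With array medians subtracted, 9 of the 16 calls were lost (FDPS, LSS, MSMO1, NSDHL, HSD17B7, SC5D, FASN, FADS3 and ACSL1). Averaging probe sets, those below the level filter included, ended 5 (IDI1, LSS, NSDHL, SC5D and FASN), with an adjusted p of up to 0.529 for LSS.

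The effect at 18 h also exceeded that at 10 h for ACSL1 (0.77), DHCR7 (0.70) and SCD (0.44), against 1.33% of all genes higher and 0.905% lower. All 3 calls were lost with array medians subtracted. The FASN difference combines DMSO means of 3108 at 4 h and 1666 at 18 h with enzastaurin means of 3707 and 4064. In DMSO arrays the change between these times was -0.90 on the log2 scale. Averaged over the FASN probe sets, the second of them below the level filter, that fall did not pass (adjusted p = 0.124). For FADS2 the DMSO means were 576 at 4 h and 428 at 18 h, and the enzastaurin means 473 and 1030. The change over time within enzastaurin arrays was not tested.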

How the results depend on the processing

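The direction of every branch median at 4, 10 and 18 h was kept under all alternatives run. With array medians subtracted, all-gene counts were 79 at 4 h, 443 at 10 h, 1187 at 18 h, 546 and 65 for the effect at 18 h against 4 h and 10 h, and 1536 for DMSO at 18 h against 4 h, against 224, 1046, 1981, 963, 276 and 2518 as reported. The cause was not tested. The branch medians at 4 h were then 0.25 (sterol) and 0.18 (fatty acid). Of the calls at 4 h, 54 were then higher and 25 lower, against 69 and 155, and of those for the effect at 18 h against 4 h, 143 were higher and 403 lower, against 504 and 459. The median of all genes was then 0.12 at 4 h. Averaging probe sets gave 133 genes at 4 h, 658 at 10 h, 577 and 131 for the 2 differences, 0 fatty acid genes at 4 h, sterol medians of 0.50 at 10 h and 0.61 at 18 h, and a fatty acid median of 0.093 at 10 h. It also turned 2 DMSO changes from 4 to 18 h, the fatty acid median to 0.023 and SC5D to -0.085. With only the groups compared, fewer arrays entered and 139 genes were called at 4 h. Every probe set on its own gave 4071 calls in DMSO over time. A 2-fold minimum left 16, 74, 197, 170, 38 and 164 calls in the order above, with 0, 4 and 6 sterol genes and 0, 1 and 3 fatty acid genes at 4, 10 and 18 h. With no level filter, and with the brightest 25% of probe sets, the sterol median was 0.10 at 4 h and 0.70 at 18 h. With array weights the fatty acid median was 0.24 at 10 h and 0.28 at 18 h. Without the acetyl-CoA suppliers it was 0.20, 0.27 and 0.32 at 4, 10 and 18 h.

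Leaving out 1 array at a time gave 138 to 236 calls at 4 h, 653 to 1115 at 10 h, 1525 to 2078 at 18 h, 704 to 1016 and 181 to 286 for the 2 differences, and 1991 to 2591 in DMSO over time. Sterol genes called were 1 to 2, 10 to 12 and 13 to 14, and fatty acid genes 1 throughout, 2 to 3 and 7 to 8, at 4, 10 and 18 h. Counts moved by over 1.5 times at 4 h without enzastaurin replicate 1 (138) or DMSO replicate 1 or 3, at 10 h without DMSO replicate 2 (653) or 3, between 10 and 18 h without DMSO 10 h replicate 2 (181), and for sterol genes at 4 h without DMSO replicate 2 (2). Sterol medians were 0.069 to 0.16, 0.42 to 0.48 and 0.70 to 0.79, and fatty acid medians 0.066 to 0.12, 0.10 to 0.26 and 0.21 to 0.34.

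The deviations from the group means of arrays that share a replicate number had correlations of -0.0814 to 0.0544. These values cannot show whether such arrays were prepared together, and the main fit did not pair them. With the replicate number as a block, 212, 1045 and 1946 genes were called at 4, 10 and 18 h, with 1, 12 and 14 sterol genes and 1, 2 and 8 fatty acid genes, and the difference for SCD between 18 and 10 h was not called. Intensity over background limits MVD, TM7SF2 and ME1, the dimmest of the measured genes.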
